A study of Mus musculus with 12 samples.

Results

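Satellite repeats are tandem arrays of short DNA units that build much of the heterochromatin of mouse chromosomes. Here they are the rows that the repeat annotation of the deposited tables puts in the class Satellite. That rule found 7 of the 18538 repeat names: GSAT_MM, MMSAT4, IMPB_01, ZP3AR, SYNREP_MM, MurSAT1 and CENSAT_MC. GSAT_MM is the major satellite, the repeat of the heterochromatin beside mouse centromeres. Whether the copies of the other names lie in heterochromatin was not examined here. The annotation gives 6 of the names the family Satellite, and CENSAT_MC the family centr. A filter on rarely counted names kept 6 of the 7 among 3312 tested repeats, and CENSAT_MC was removed by it.

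Pericentromeric heterochromatin is marked by trimethylation of lysine on the tail of histone H3 and is largely repressed in somatic cells. In the mouse, major satellite is known to be transcribed in a short burst around the 2-cell stage, when the parental genomes form their first chromocentres. The product of Kdm4a takes methyl groups off histone H3, and the mark of this heterochromatin is among its substrates.

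The data were total RNA libraries of C57BL/6 preimplantation embryos at the 2-cell stage, 1.5 days after fertilization, with 6 libraries in each of 2 groups. In the group called WT (m+/p-), wild-type oocytes were fertilized with Kdm4a knockout sperm. In the group called KO, Kdm4a knockout (m-/p-), knockout oocytes received the same kind of sperm. No group therefore had a working paternal allele, and the contrast is of the maternal allele with the product stored in the oocyte. The labels place embryos in individual tubes. Neither the number of embryos in a library nor the number of oocyte donors is stated, so p-values measure only the spread between these libraries.

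KO replicate 5 was the shallowest library, with 7952526 repeat counts in total, and WT replicate 4 the deepest, with 18902360. Ribosomal RNA repeats took 4.79% to 6.94% of the counts. The tables held repeats and no genes: none of 8 genes that mark cumulus cells or oocytes was a row, nor was Kdm4a, so neither the cell type nor the genotype could be checked by its marker genes. Of the 3312 tested repeats, 47 passed edgeR's quasi-likelihood test between KO and WT at a Benjamini-Hochberg adjusted p under 0.05, which is 1.42%. In bulk RNA of this kind, fewer cells with a transcript and less of it per cell cannot be told apart.

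None of the 6 tested satellite rows passed that test. They differed in direction, with 3 positive and 3 negative log2 fold changes (KO over WT). Their median was -0.10, against 0.011 over all tested repeats. At an unadjusted p under 0.05 edgeR counted 1 row, IMPB_01, and that threshold was met by 13.4% of all tested repeats, with 5.5% higher and 7.91% lower. DESeq2 called 1 row, again IMPB_01, as higher in KO, while limma-voom called none of the 6 rows. Of all tested repeats DESeq2 called 4.98%, with 40 higher and 125 lower. That share counts the 1157 repeats to which DESeq2 gave no adjusted p. The groups overlapped in all 6 rows, and 2.11% of all tested repeats had groups that did not overlap.

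As a class, satellites made up 2.22% ± 0.257 of the repeat counts in the WT group and 2.35% ± 0.611 in the KO group (SD, n = 6 each). The WT libraries lay between 1.76% and 2.56% with a median of 2.24%, and the KO libraries between 1.99% and 3.56% with a median of 2.07%. KO replicate 5, the shallowest library, held the highest share. Without it the KO mean was 2.11% ± 0.176 (n = 5), so the sign of the difference between the means turned from 0.137 to -0.104 percentage points. Outside the LTR class of retrotransposons, with all libraries kept, the means were 5.05% ± 0.793 in WT and 4.52% ± 1.25 in KO (SD, n = 6). That difference, -0.530 percentage points, was also below 0. No test was made of the class share.

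Reads were split unevenly among the names. MMSAT4 held 75.3% ± 5.21 of the satellite counts of WT libraries and 75.6% ± 6.13 of those of KO libraries (SD, n = 6). GSAT_MM held 19.6% ± 4.91 in WT and 17.6% ± 6.96 in KO. IMPB_01 held 4.13% ± 0.729 in WT and 5.84% ± 1.66 in KO. ZP3AR held at most 1.25% in any library, and SYNREP_MM and MurSAT1 were rarer still. The lengths and copy numbers of the repeats were not used here, so these are shares of reads and not levels per locus.

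**Figure D1:**
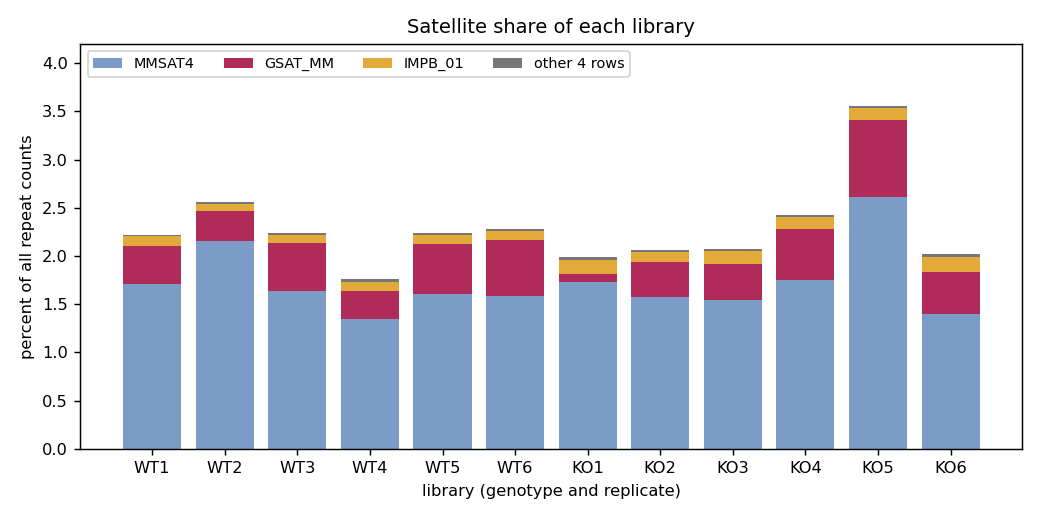
Stacked bars of the percent of all repeat counts (vertical axis, from 0) taken by satellite rows in each of the 12 libraries (horizontal axis, genotype and replicate). MMSAT4 is the tallest part of every bar, KO5 reaches 3.56%, and the GSAT_MM part of KO1 is the smallest of that row.

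The major satellite, GSAT_MM, was detected in every library, with 12921 to 80680 counts. In WT its level ran from 3084 to 6457 normalised CPM (counts put on a common library size with TMM factors) with a median of 4786. In KO it ran from 623 to 7379 with a median of 3598. The KO libraries held both the lowest and the highest value of all 12, with replicates 2, 3, 4 and 6 between 3452 and 4967, inside the WT range.

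The GSAT_MM means were 4813 ± 1228 in WT and 3936 ± 2208 in KO (SD, n = 6). The log2 fold change was -0.29 with a standard error of 0.38 and a 95% interval from -1.11 to 0.53 (edgeR adjusted p = 0.842). Other settings gave -0.59 in limma-voom with quality weights, -0.57 in edgeR with library size as a covariate and -0.015 under total-count scaling (adjusted p = 0.586, 0.512 and 0.985). The difference was smaller than the spread between libraries, and the interval runs from a fall to a rise. As a share of all repeat counts, the WT libraries had 0.434% ± 0.117 GSAT_MM and the KO libraries 0.429% ± 0.234 (n = 6, exact permutation test over 924 regroupings, two-sided, p = 0.963). Outside the LTR class of retrotransposons, whose share was lower in KO libraries, GSAT_MM took 0.981% ± 0.247 of the counts in WT libraries and 0.828% ± 0.460 in KO libraries (n = 6, exact permutation p = 0.509). No difference in the major satellite was thus detected, and 2 of 6 KO libraries lay above the WT median.

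KO replicate 1 held the lowest GSAT_MM level of all libraries. It stood at 623 normalised CPM, and the other 11 libraries lay between 3084 and 7379. As a share of counts it held 0.0783% (exact binomial 95% interval 0.0770% to 0.0797%, which covers counting error only), and the next lowest library, WT replicate 4, held 0.295%. The median of the other 5 KO libraries was 5.99 times the level of KO replicate 1. On the log2 scale KO replicate 1 lay 2.58 below that median, the lowest such value among the 555 repeats whose mean reached 100 normalised CPM. The next lowest, the simple repeat _TCTTGC_n, had -1.03 and MERVL-int, the internal part of the endogenous retrovirus MERVL, had -0.95. This comparison of KO replicate 1 was chosen after its values were seen.

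Without KO replicate 1 the GSAT_MM mean of KO was 4599 ± 1674 (n = 5) and the log2 fold change -0.065 (edgeR adjusted p = 0.955). Without KO replicate 5, which held the highest GSAT_MM level, the log2 fold change was -0.57 (edgeR adjusted p = 0.588), and without that library and WT replicate 2 it was -0.61 (edgeR adjusted p = 0.566). KO replicate 1 was the deepest KO library, with 16493286 counts, and had the highest TMM factor of all 12, 1.26, by which its normalised levels are divided. Its ribosomal RNA repeats took 5.40%, within the range of the others. Their part in the low value was not tested, and the share of counts given above does not use the factor. The same library was lowest of all 12 for SYNREP_MM, at 1.25 normalised CPM, and highest of all 12 for MurSAT1, at 16.6. Its MMSAT4, IMPB_01 and ZP3AR levels lay within the range of the other KO libraries.

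**Figure D2:**
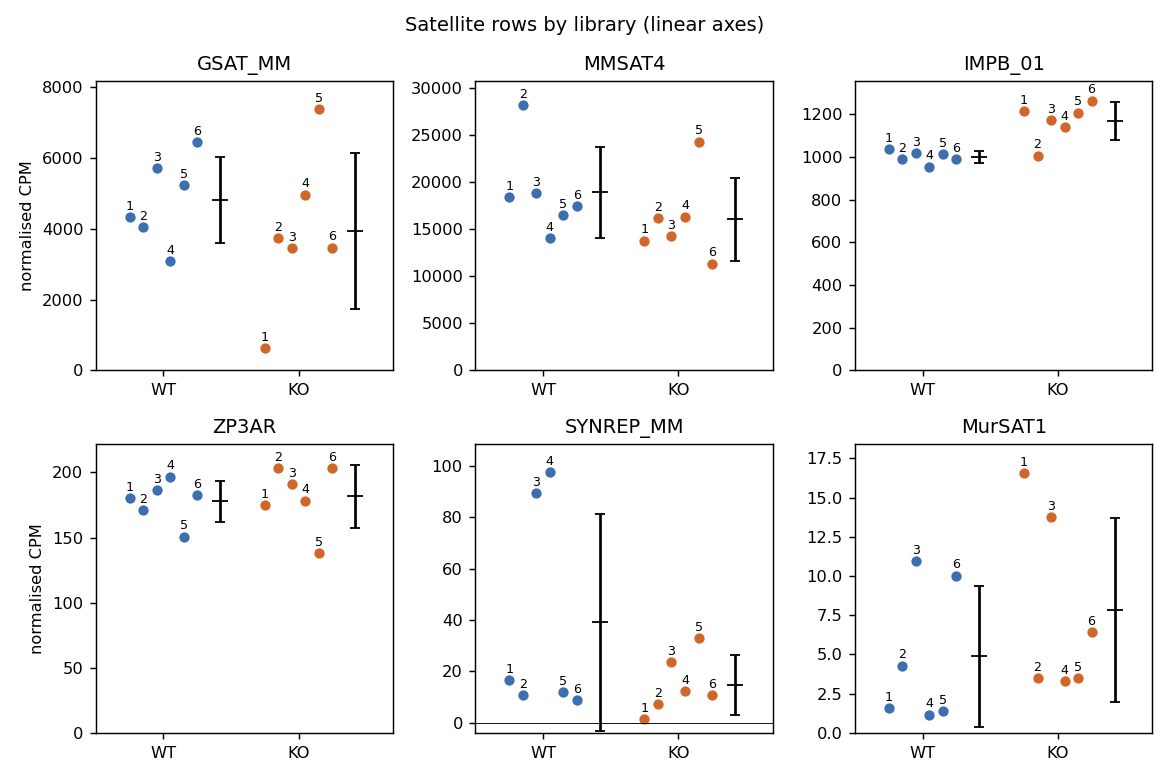
Normalised CPM (vertical axes, linear) of the 6 tested satellite rows in each library, numbered by replicate, with the mean and SD (n = 6) as bars to the right of each group. KO replicate 1 stands at 623 for GSAT_MM, and for IMPB_01 5 of 6 KO libraries lie above every WT library.

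MMSAT4, the row with most reads, did not differ beyond its spread. It ran from 14056 to 28132 normalised CPM in WT with a median of 17918, and from 11314 to 24271 in KO with a median of 15186. The means were 18893 ± 4835 and 16007 ± 4441 (SD, n = 6). The log2 fold change was -0.24 with a 95% interval from -0.63 to 0.15 (edgeR adjusted p = 0.634). The highest value of each group was in its shallowest library, WT replicate 2 and KO replicate 5. Without WT replicate 2 the log2 fold change was -0.092, and without KO replicate 5 it was -0.39 (edgeR adjusted p = 0.877 and 0.298). With library size as a covariate it was -0.37, farther from 0 than without it (edgeR adjusted p = 0.110).

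MMSAT4 counts varied less than depth did. They ranged 1.49-fold over the libraries, from 191561 to 285565, and total counts ranged 2.38-fold. Over the 12 libraries the log2 level of MMSAT4 had a Pearson r of -0.675 with log2 total count (permutation p = 0.0185, adjusted p = 0.111 over 6 satellite rows) and a Spearman rho of -0.469 (permutation p = 0.128, adjusted p = 0.462). Within WT r was -0.807 (n = 6, exact permutation p = 0.0472) and within KO -0.848 (n = 6, exact permutation p = 0.0583). Without KO replicate 5 and WT replicate 2, the libraries farthest from the median depth, r was -0.178, so the relation was weaker without them. Their removal also narrows the range of depth, which by itself can weaken r. It therefore cannot decide whether the relation rests on those libraries. The level is itself divided by a size close to the total, so the 2 measures are not independent. The median r with depth over the 555 abundant repeats was -0.142, and MMSAT4 ranked 20 from the lowest. GSAT_MM had an r of -0.449 with depth (permutation p = 0.127, adjusted p = 0.253) and a rho of -0.441 (permutation p = 0.154, adjusted p = 0.462).

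**Figure D3:**
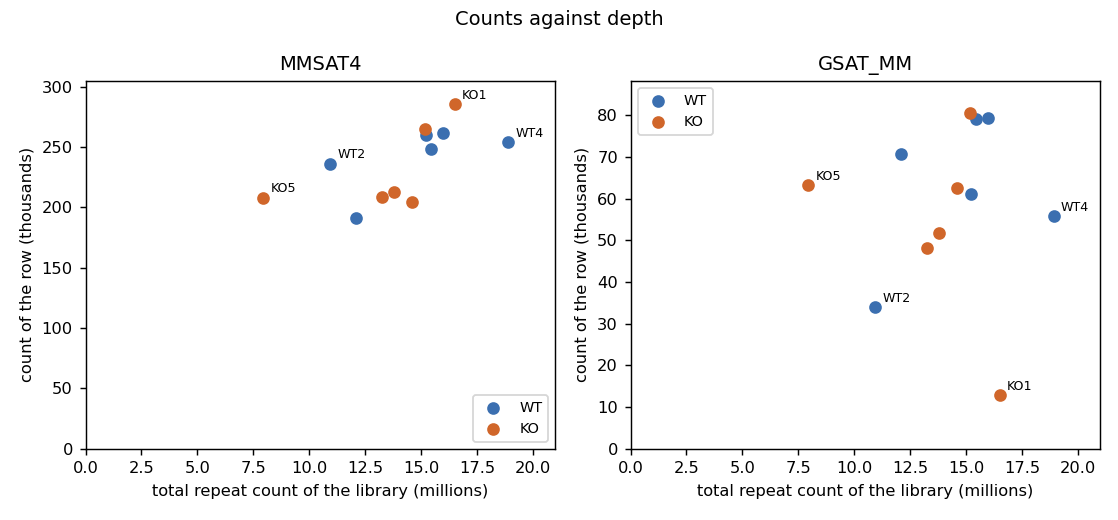
Counts of MMSAT4 and of GSAT_MM (vertical axes, from 0) against the total repeat count of the library (horizontal axes), 1 point per library and colours for the genotype. MMSAT4 counts stay between 191561 and 285565 while depth varies 2.38-fold, and GSAT_MM is lowest in KO1 in spite of its 16493286 counts.

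IMPB_01 had the smallest p of the satellite rows, with most KO libraries slightly above the WT libraries. In WT it ran from 954 to 1037 normalised CPM with a median of 1001. In KO it ran from 1005 to 1263 with a median of 1190. All KO libraries but replicate 2 lay above every WT library, a pattern of at least 5 KO libraries above all WT that 2.45% of all tested repeats had.

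The IMPB_01 means were 1000.3 ± 28.7 in WT and 1167 ± 89.5 in KO (SD, n = 6). The log2 fold change was 0.22 with a standard error of 0.064 and a 95% interval from 0.086 to 0.36 (edgeR adjusted p = 0.100). The row therefore did not pass the correction over all repeats. DESeq2 did call it (log2 fold change 0.21, adjusted p = 0.0462). DESeq2 gave no adjusted p to 1157 of the 3312 repeats, so its correction covered fewer. With at least 10 counts in every library, edgeR corrected over 2161 repeats and gave an adjusted p of 0.0700. Why only DESeq2 called the row among all 12 libraries with such scaling factors was not tested. The unadjusted p was nearly the same in both programs (DESeq2 0.00345, edgeR 0.00352). IMPB_01 was also called by edgeR without KO replicate 2 (0.26, adjusted p = 0.0265), a setting that called 0.26% of all repeats higher. That library was the only KO library inside the WT range. Removing any other single library gave edgeR adjusted p from 0.141 to 0.188. Scaling by total counts called it as well (0.54, edgeR adjusted p = 0.00799). That scaling lifted the median log2 fold change of all repeats from 0.011 to 0.32 and called 10.8% of them higher. Relative to the median of its own fit, IMPB_01 stood at 0.22 under total-count scaling, 0.21 under TMM scaling and 0.070 with no filter. With no filter its own log2 fold change was still 0.24, while the median over 10386 repeats was 0.17. IMPB_01 was not called in 23 of the 26 other settings.

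As a share of all repeat counts, a measure added after the values were seen and given as a description, IMPB_01 took 0.0901% ± 0.00794 in WT libraries and 0.131% ± 0.0214 in KO libraries (SD, n = 6). The LTR class of retrotransposons took 54.1% to 59.6% of the counts in WT libraries and 44.2% to 51.7% in KO libraries. As a share of counts outside that class, IMPB_01 had 0.204% ± 0.0115 and 0.250% ± 0.0296. The share of KO replicate 2, 0.0983%, lay just below the highest WT share of 0.0988%.

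**Figure D4:**
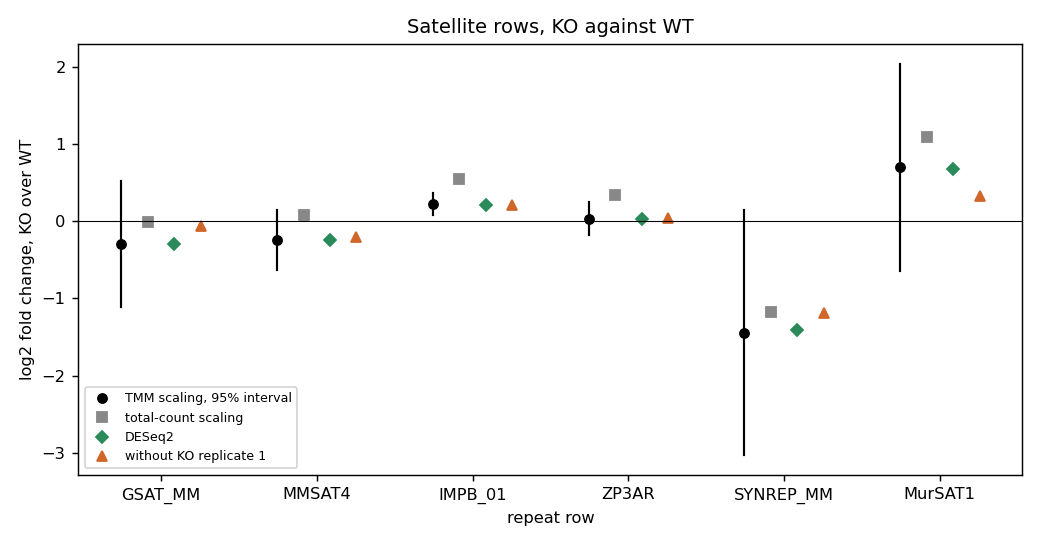
Log2 fold changes of KO over WT (vertical axis) for the 6 tested satellite rows under 4 settings, with the 95% interval of the edgeR fit with TMM scaling as a line. IMPB_01 is the row whose line does not cross 0, from 0.086 to 0.36, and SYNREP_MM has the widest, from -3.03 to 0.14.

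ZP3AR had the log2 fold change nearest 0 under TMM scaling. It ran from 151 to 197 normalised CPM in WT with a median of 181, and from 138 to 204 in KO with a median of 185. The log2 fold change was 0.030 with a 95% interval from -0.18 to 0.24 (edgeR adjusted p = 0.952). Under total-count scaling, which lifts the typical repeat by about as much, it was 0.34 (edgeR adjusted p = 0.0796).

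SYNREP_MM and MurSAT1 were rare and uneven. SYNREP_MM ran from 8.84 to 97.6 normalised CPM in WT with a median of 14.2, and from 1.25 to 32.9 in KO with a median of 11.5. WT replicates 3 and 4 held 89.4 and 97.6, far above the other 10 libraries. The log2 fold change was -1.44 with a standard error of 0.74 and a 95% interval from -3.03 to 0.14 (edgeR adjusted p = 0.425). Without WT replicate 3 it was -1.02 and without WT replicate 4 -0.93 (edgeR adjusted p = 0.659 and 0.670).

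MurSAT1 ran from 1.16 to 10.96 normalised CPM in WT with a median of 2.92, and from 3.32 to 16.6 in KO with a median of 4.96. These levels come from 21 to 344 counts a library. The log2 fold change was 0.70 with a 95% interval from -0.65 to 2.04 (edgeR adjusted p = 0.716). It was 0.33 without KO replicate 1, 1.12 without WT replicate 3 and 1.04 without WT replicate 6 (edgeR adjusted p = 0.915, 0.544 and 0.591). The intervals of both rare rows leave room for changes of several fold.

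CENSAT_MC had 1 count in WT replicate 1, 1 in KO replicate 5 and 0 in the other 10 libraries. A count of 0 allows up to 3 counts, or a share of up to 1.59e-05% in the deepest library. Its presence in these embryos was not measurable.

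The rows differed widely in how far libraries of 1 genotype lay apart. Among the 555 abundant repeats the median SD of the log2 level was 0.15 in WT and 0.19 in KO (n = 6 each). IMPB_01 had an SD of 0.042 in WT, the fourth lowest of the 555, and 0.12 in KO. ZP3AR had 0.13 and 0.21. MMSAT4 had 0.33 and 0.37, ranks 47 and 45 from the largest. GSAT_MM had 0.39 in WT, rank 27 from the largest, and 1.23 in KO, the largest of the 555. Without KO replicate 1 the SD of GSAT_MM in KO was 0.47. Whether the spread itself differs between the genotypes was not tested. Counting error alone gives a coefficient of variation of 0.35% to 0.88% for GSAT_MM, against 25.5% measured in WT and 56.1% in KO.

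**Figure D5:**
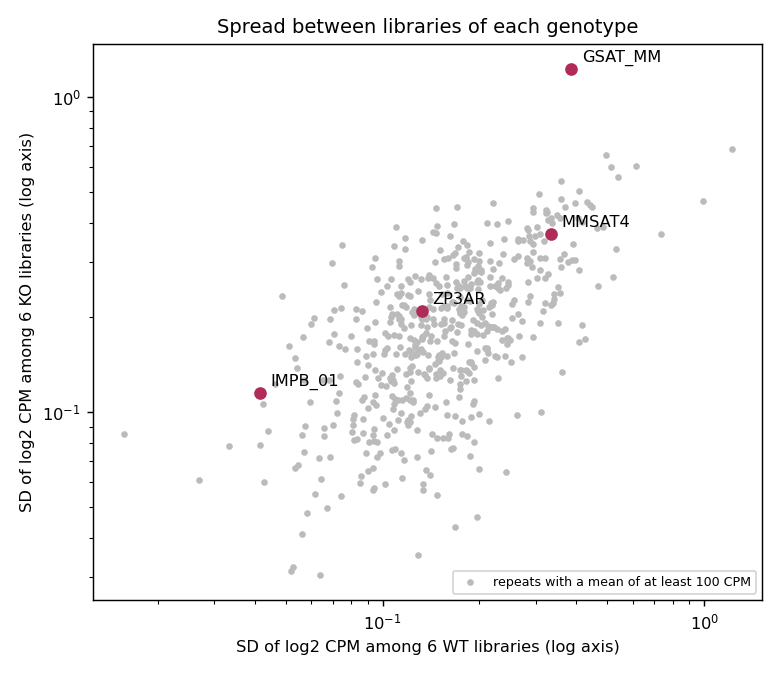
SD of the log2 level among 6 KO libraries (vertical axis, log scale) against that among 6 WT libraries (horizontal axis, log scale) for 555 repeats whose mean reached 100 normalised CPM, with the 4 satellite rows among them named. GSAT_MM stands above all other repeats at 1.23 in KO, and IMPB_01 lies near the left edge at 0.042 in WT.

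The satellite rows were also compared with each other from library to library. Of 15 pairs of rows over the 12 libraries, none had a correlation that passed adjustment over the 15. The closest by rank was GSAT_MM with MMSAT4, with a Spearman rho of 0.755 (permutation p = 0.00635, adjusted p = 0.0952) and a Pearson r of 0.456 (permutation p = 0.155, adjusted p = 0.552). Within WT this r was 0.083 (n = 6, exact permutation p = 0.892), and within KO it was 0.523 (n = 6, exact permutation p = 0.261) with a rho of 0.829 (exact permutation p = 0.0583). Without KO replicates 1 and 5, the farthest in GSAT_MM, r was 0.377. GSAT_MM with SYNREP_MM had an r of 0.600 (permutation p = 0.0608, adjusted p = 0.456) and a rho of 0.210 (permutation p = 0.514, adjusted p = 0.876). Its r was 0.918 within KO (n = 6, exact permutation p = 0.0278), -0.391 within WT (n = 6, exact permutation p = 0.401) and -0.152 over both groups without KO replicates 1 and 5. GSAT_MM with MurSAT1 had an r of -0.352 (permutation p = 0.295, adjusted p = 0.552) and a rho of -0.133 (permutation p = 0.683, adjusted p = 0.876). Within KO the r of GSAT_MM with MurSAT1 was -0.772 (n = 6, exact permutation p = 0.00972) and the rho -0.829 (exact permutation p = 0.0583). Within WT the r was 0.706 (n = 6, exact permutation p = 0.118). The p-values within single groups were not adjusted for the number of pairs. Without KO replicates 1 and 5 the r over both groups was 0.240. MMSAT4 and ZP3AR had r of -0.598 (permutation p = 0.0403, adjusted p = 0.456) and rho of -0.594 (permutation p = 0.0466, adjusted p = 0.350), and r was -0.387 without WT replicate 2 and KO replicate 5.

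Outside the class, the repeats most like GSAT_MM were sought among 893 repeats whose mean reached 10 normalised CPM, simple repeats left out. Likeness was the Pearson r of log2 levels over the 12 libraries, given as a description. The 5 highest were ETnERV-int (0.763), RLTRETN_Mm (0.734) and RLTR13A3 (0.731) of the ERVK family, the DNA transposon Kanga11a (0.747) and MER31B (0.731) of the ERV1 family. Each of the 5 had its lowest level in KO replicate 1. Without that library their r with GSAT_MM fell to between 0.180 and 0.566, and none of the 5 was among the 5 highest. The highest r without it, 0.788, was that of the DNA transposon Charlie8, named after its values were seen, whose r with all 12 libraries was 0.319.

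Repeats outside the class that are known to be held in methylated heterochromatin were set beside the satellites. Their chromatin was not measured in these embryos. A list of 53 names took IAP retroviruses, the LINE-1 groups L1MdA, L1MdT and L1MdGf, and the telomere unit TTAGGG in its 12 spellings. The list also took names starting ETn or MMETn, which leaves out RLTRETN_Mm. Of its 49 tested names, edgeR called 4 lower and 0 higher in KO, against 1.27% lower and 0.151% higher over all tested repeats. All tested repeats include many simple repeats, so they differ in kind from most of the list. In a fit without simple repeats and low-complexity tracts, edgeR called 87 of 1223 repeats lower and 21 higher. That fit called 7 names of the list. At an unadjusted p under 0.05 edgeR counted 15 lower and 0 higher, against 7.91% lower and 5.5% higher over all tested repeats. DESeq2 called 8 in all, against 4.98% of all tested repeats, including those to which it gave no adjusted p. Its median log2 fold change was -0.22, with -0.34 for the 25 IAP names, -0.014 for the 12 LINE-1 names and -0.23 for the 4 ETn and MusD names. The 2 called names with the smallest p were L1MdGf_II, with a log2 fold change of -0.62, and IAPLTR2a, with -0.91 (edgeR adjusted p = 0.0157 and 0.0159). Of the telomere spellings, 8 were tested, their median log2 fold change was 0.061, and none had an edgeR p under 0.05 before adjustment. The IAP and ETn names belong to the LTR class. That class as a whole took 54.1% to 59.6% of counts in WT libraries and 44.2% to 51.7% in KO libraries. Whether the falls are particular to silenced repeats was not tested.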

How the data were processed

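Per the submitters' processing notes, mm10, Trimmomatic 0.32 and edgeR were used, with no role given. No aligner, counting program or repeat annotation is given in the sources used here. The authors deposited 1 table per library, with an estimated count for each repeat name. All were whole numbers, so rounding changed nothing. Sharing of reads between names and use of strand are not stated. Reads from genes that carry a repeat may be included. Sequences of satellites were not used here.

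Groups and replicate numbers came from the sample titles; the numbers in the names of the deposited tables run the opposite way within each group. The members and lists were chosen with earlier results of these data known. Rows of class Satellite were taken from 1 fit of all repeats in edgeR 4.0.16 (R 4.3.3): filterByExpr, TMM, quasi-likelihood F test with genotype as the only term, Benjamini-Hochberg over 3312 rows, threshold 0.05. Standard errors came from the F statistic. Alternatives included DESeq2 1.42.0, limma 3.58.1 and removal of each library. Permutation tests were exact for groups and used 100000 draws for correlations over 12 libraries. All satellite rows are named, with the 5 repeats most correlated with GSAT_MM and the 2 called members of smallest p in the list of silenced repeats. Others were chosen after their values were seen. No replicate pair agreed within sampling noise (chi-square per degree of freedom at least 25.5). Same-numbered libraries did not deviate together (correlations from -0.07 to 0.15), so numbers were not treated as pairs.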

Additional observations from a re-analysis of the deposited data

Results flagged for a closer look

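MMSAT4 in WT replicate 2 stood far above the rest of its group, at 28132 normalised CPM against 18849 in the next highest library. The satellite class took 3.56% of the counts in KO replicate 5, against 2.42% in the next highest KO library. These were the only gaps past Dixon's 95% value among 14 groups of values examined, and chance marks about 1 in 20. The gaps were taken on the linear scale, which weighs high values more than low ones. Log2 levels, on which GSAT_MM in KO replicate 1 lay 2.58 below the median of the other KO libraries, were not examined this way. The 2 libraries are the shallowest of their groups, with 10946392 and 7952526 counts. The part of depth in these values was not tested.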

How the results depend on the processing

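Without each library in turn, the repeats called ranged from 19 to 93, the satellite rows called from 0 to 1, the calls in the list of silenced repeats from 2 to 6, the log2 fold change of GSAT_MM from -0.57 to -0.065, its difference in share (KO minus WT) from -0.0776 to 0.0657 percentage points and that of the class from -0.104 to 0.210. Against 47, the repeats called numbered 390 under total-count scaling, 165 with DESeq2, 18 with no filter, 107 with at least 10 counts in every library, 72 with library size as a covariate, 108 without simple repeats, and 23 without WT replicate 2 and KO replicate 5. Satellite rows called numbered 1 under total-count scaling and 1 with DESeq2, IMPB_01 both times. Calls in the silenced list were 8, 2, 7 and 2 with DESeq2, no filter, no simple repeats and without WT replicate 2 and KO replicate 5, against 4. The GSAT_MM share turned sign (0.00321 percentage points) outside simple repeats, and when WT replicate 3, 5 or 6 (0.00815, 0.0112, 0.0259) or KO replicate 1, 2 or 3 (0.0657, 0.00844, 0.00634) was left out. It was -0.102 without both WT replicate 2 and KO replicate 5. Outside the LTR class the class share differed by -0.530 points. MMSAT4 turned to 0.081 under total-count scaling, which lifts all rows. ZP3AR lay between -0.023 and 0.099 when single libraries were left out, and was below 0 with WT replicate 5 (-0.023), KO replicate 2 (-0.0033) or KO replicate 6 (-0.0047) removed. The cause of these turns was not tested. With the replicate block, which the data do not bear out as pairing, 48 repeats were called, none a satellite, and the log2 fold changes were -0.51 for GSAT_MM and 0.22 for IMPB_01 (edgeR adjusted p = 0.673 and 0.150). SYNREP_MM and MurSAT1 kept their sign in all 26 other settings, uncalled. Their spread between libraries exceeded counting error.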
